A study of Mus musculus with 36 samples.

Results

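Tumour-associated macrophages (TAM) of the B16-F10 melanoma model in mice were compared between treatment with OMV-SIRP-G and treatment with OMV-SIRP. The comparison used 6 of the 36 RNA-sequencing libraries of the series, 3 from each treatment, chosen by their labels, and covered every gene in the table of the B16-F10 model. The 3 libraries of the phosphate-buffered saline (PBS) group of the same model entered the fit and are given as levels. Per the labels, the mice were wild type (WT) in all 3 groups. OMV stands for outer membrane vesicle, a particle shed by bacteria, and the labels do not spell out what SIRP and G stand for in the treatment names. The labels give no strain, age, dose or time of sampling. The design text speaks of pooling 3 samples of each group, which can be read as 3 libraries kept per group or as pools sequenced as 1 library. No label ties a library to an animal, and the p-values therefore reflect the spread among these libraries alone, part or all of which may be technical.

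Macrophages in tumours take up dying cells and debris, digest them in lysosomes, and shape the immune response through antigen presentation, chemokines and enzymes of arginine metabolism. SIRP alpha (gene Sirpa) is an inhibitory receptor of macrophages. It binds CD47, a surface protein of most cells that restrains their uptake, and signals through the phosphatase SHP-1. B16-F10 is a mouse melanoma line that makes the enzymes of pigment synthesis.

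Reads assigned to genes numbered from 13036567 to 15563452 in the 9 libraries. Across genes, log2(FPKM + 1) values of replicate libraries correlated at 0.929 to 0.937 within OMV-SIRP and at 0.933 to 0.95 within OMV-SIRP-G, and at 0.894 to 0.92 between the treatments. FPKM is the number of fragments per kilobase of gene length, scaled for sequencing depth. Reads from the mitochondrial genome made up 21.3%, 18.6% and 18.5% of the OMV-SIRP libraries, and 13.6%, 14.2% and 13.02% of the OMV-SIRP-G libraries. Libraries 2 and 3 of OMV-SIRP stood apart from library 1 in transcripts of the exocrine pancreas and the liver. Summed over 24 genes known from the exocrine pancreas, a list chosen after values were seen, FPKM was 110, 738 and 1657 in OMV-SIRP and 96.7, 16.1 and 23.1 in OMV-SIRP-G. In PBS the sums were 216, 482 and 974, so these transcripts were present and uneven there too.

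The label TAM was checked against marker genes. All 13 macrophage identity genes passed the filter on low values, and their summed FPKM was 2920 to 3710 in OMV-SIRP, 6580 to 6860 in OMV-SIRP-G and 2090 to 2150 in PBS. Melanocyte genes were present as well, at a sum over 12 genes of 2560 to 2830 in OMV-SIRP, 869 to 979 in OMV-SIRP-G and 3170 to 3450 in PBS. The treatments did not overlap in either sum. Summed macrophage identity genes were higher, and summed melanocyte genes lower, in every OMV-SIRP-G library than in any OMV-SIRP library, with median log2 changes of 1.14 and -1.42. In bulk RNA, fewer cells of a type and less RNA per cell cannot be told apart. The part of these marker differences in the results below was not tested.

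**Figure D1:**
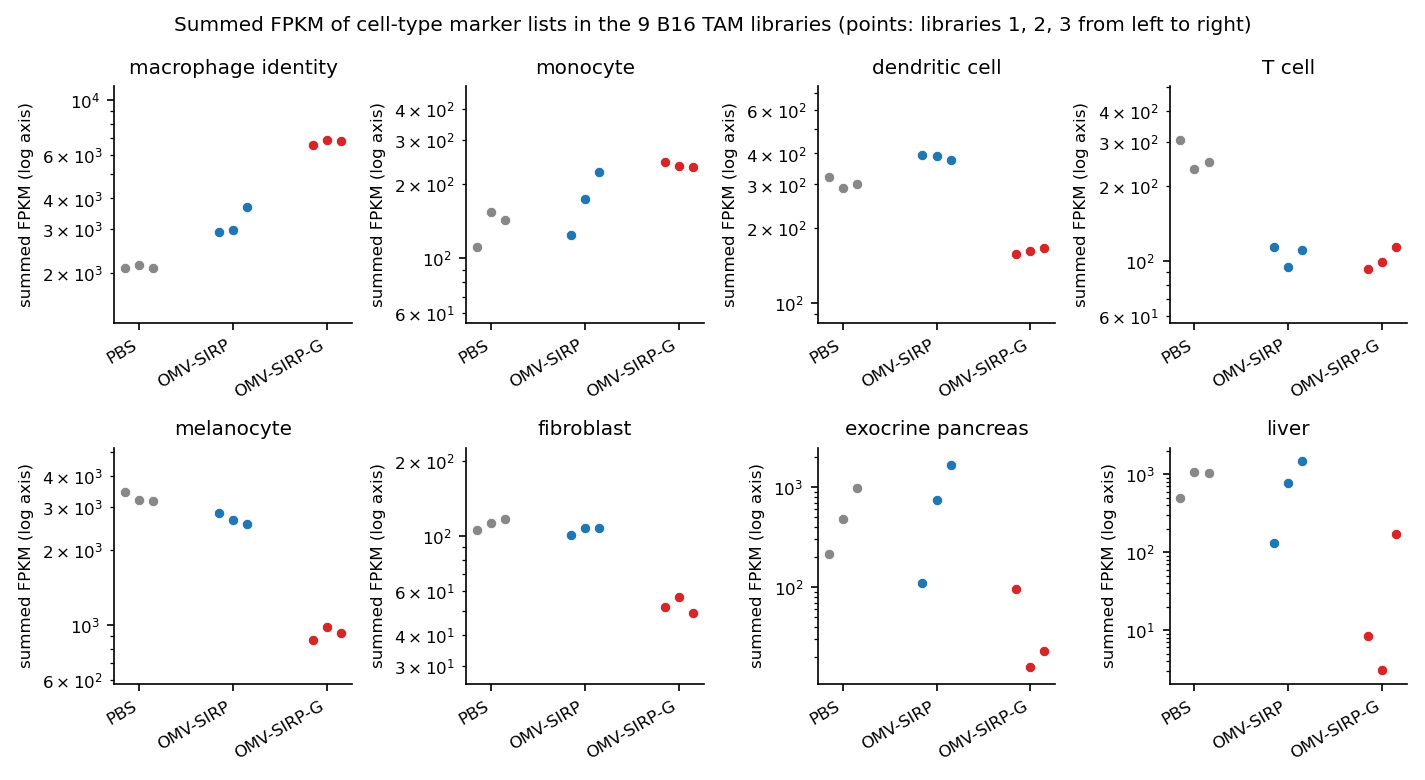
Summed FPKM (log axis) of 8 marker lists in the 9 B16 TAM libraries, each point 1 library. The OMV-SIRP-G libraries lie above both other groups for macrophage identity genes (6580 to 6860) and below both for melanocyte genes (869 to 979). For exocrine pancreas genes the OMV-SIRP libraries spread from 110 to 1657 and the PBS libraries from 216 to 974.

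Of 12542 genes tested, 1502 (12.0%) differed between the treatments at a limma adjusted p under 0.05. Under OMV-SIRP-G 797 genes (6.35%) were higher and 705 (5.62%) were lower, and the median log2 change over all genes tested was -0.02. A change of at least 2-fold on the log2(FPKM + 1) scale was reached by 231 of the higher and 400 of the lower genes. In the fits that each left out 1 library, the number called ranged from 1005 to 1495, and 740 genes were called in all fits that tested them. Without OMV-SIRP-G library 2 the number of higher genes was 519, and without OMV-SIRP library 2 the number of lower genes was 448. With OMV-SIRP library 1 as the lone OMV-SIRP sample, assumed to vary like the other groups, 611 genes were called. That fit has fewer samples, so a lower count of calls in it does not show a smaller change, and list medians (log2 change) are given beside its counts. Of the genes named below, Car9, Cd274, Cd79a, Cyp51, Fdft1, Hspa1a, Il1a, Il1r2, Mmp12, Pfkl, Ptpn6, Tlr2 and Tpsb2 lost their call in that fit alone. The genes Ptk2b, Mgl2, Relb, Nfkbia, Socs2, C2, Adamts1, Mif, Eno1, Hspe1, Hspa8, Mthfd2, Vcan, Mitf, Chac1 and Atf4 are named to complete a count and were chosen after their values were seen. The same holds for Spi1, Cd163 and Cx3cr1. The counts below are of list members measured above the filter, to be read against these percentages, and "rose" and "fell" mean an adjusted p under 0.05. A list member without reads in any OMV-SIRP-G library passed the filter through the other groups and could not rise. The percentages are no measure for such members. Most list members given with values are those of lowest p, a choice that favours separated treatments and stable calls. The share of all genes tested whose treatments did not overlap was not counted.

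**Figure D2:**
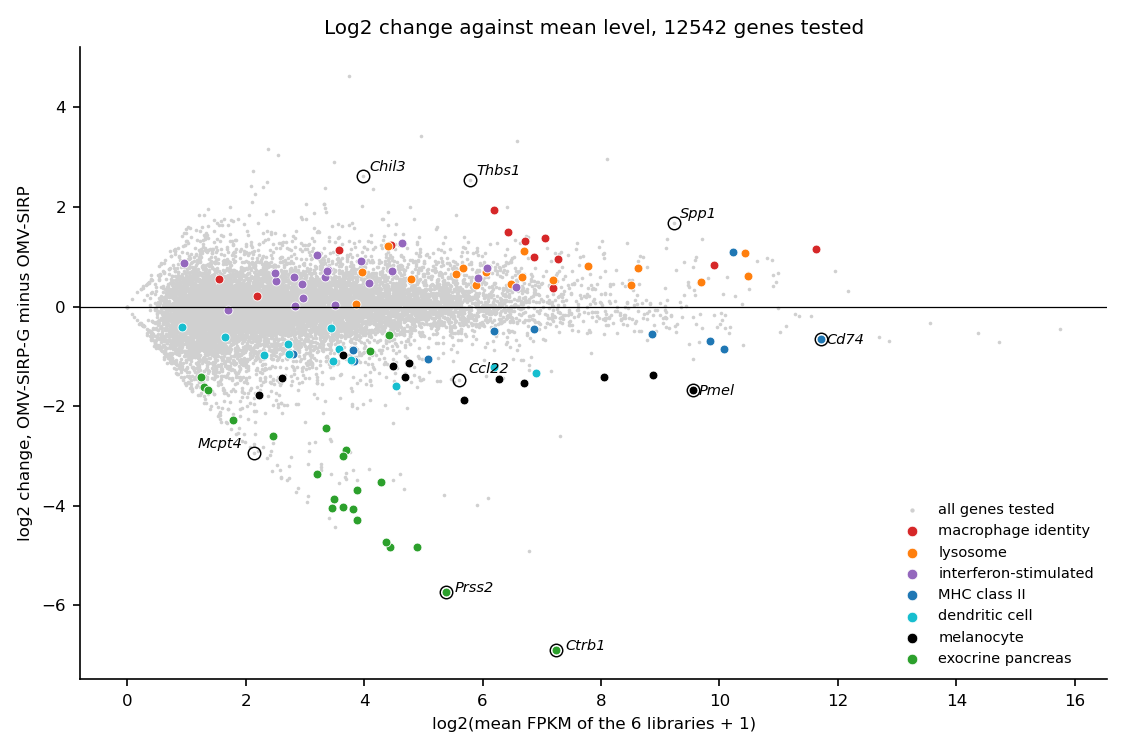
Log2 change (OMV-SIRP-G minus OMV-SIRP) of 12542 genes against their mean level, log2(mean FPKM of the 6 libraries + 1), with 7 gene lists in colour and 9 genes ringed. Macrophage and lysosome genes lie above the line at 0, and melanocyte, dendritic cell and exocrine pancreas genes below it.

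Chil3 and Thbs1 had the largest increases by the rule for named genes. Among protein-coding genes with a mean of at least 5 FPKM and groups that did not overlap, 14 of the 15 largest changes belonged to Chil3, Thbs1, Cxcl3, Slfn4, Ly6c2, Ms4a4a, Ppbp, Adap2, Ifi204, Apobec1, Hcar2, F13a1, Vcam1 and Cmklr1. Their log2 changes lay between 1.76 and 2.62, and all 14 kept their call whichever library was left out. The first of them, Chil3 (ENSMUSG00000040809, chr3:106147554-106167564, minus strand, GRCm38), encodes a chitinase-like protein secreted by alternatively activated macrophages. Its FPKM was 3.60, 3.18 and 3.44 in OMV-SIRP and 21.5, 29.3 and 28.2 in OMV-SIRP-G, against 4.43, 1.84 and 1.81 in PBS. The lowest OMV-SIRP-G library lay well above the highest library of both other groups, and the log2 change was 2.62 ± 0.25 (SE, limma adjusted p = 0.000237).

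Thbs1 (ENSMUSG00000040152, chr2:118111876-118127133, plus strand) encodes thrombospondin 1, a secreted matrix protein that binds CD47 and CD36. It stood at 18.8, 15.7 and 11.9 FPKM in OMV-SIRP and at 92.0, 96.2 and 90.9 in OMV-SIRP-G. In PBS it was 18.5, 22.8 and 20.2, so that OMV-SIRP-G alone was high. The log2 change was 2.53 ± 0.16 (adjusted p = 3.52e-05). Ly6c2, a surface antigen of classical monocytes, was 3.06, 3.59 and 2.13 FPKM against 15.2, 13.7 and 16.7. F13a1, the A subunit of coagulation factor XIII and a marker of monocytes, was 12.4, 11.6 and 11.9 against 41.9, 45.6 and 42.1. The rule that named these 3 genes required treatments without overlap, so their separation follows from that choice. Vcam1, an adhesion molecule for integrins, was lower in OMV-SIRP (2.71, 2.91 and 2.50 FPKM) than in PBS (6.87, 8.03 and 9.48), and highest in OMV-SIRP-G (10.5, 10.8 and 13.5).

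Genes of the SIRP alpha and CD47 axis were also higher under OMV-SIRP-G. Of 10 genes measured, 6 rose, Sirpa, Cd47, Ptpn6, Sirpb1c, Thbs1 and Ptk2b, and the median log2 change was 0.50. Sirpa (ENSMUSG00000037902, chr2:129592835-129632228, plus strand), the receptor, was 103, 101 and 109 FPKM in OMV-SIRP and 198, 196 and 213 in OMV-SIRP-G. The treatments did not overlap, and the PBS libraries (76.6, 92.4 and 99.0) lay below the OMV-SIRP level. The log2 change was 0.95 ± 0.11 (adjusted p = 0.000564). Sirpa is also a macrophage marker, and its fold of means, 1.95, stands beside 2.01 for Csf1r and 2.50 for Adgre1, macrophage markers of the same libraries. Macrophage identity genes, Sirpa among them, had a median log2 change of 1.14. Some changed less than Sirpa, such as Spi1 (0.37) and Cx3cr1 (0.22). The part of macrophage marker differences in that of Sirpa was not tested. Cd47 (chr16:49800533-49915010, plus strand), the ligand, was 18.8, 16.1 and 20.4 FPKM against 31.4, 27.5 and 33.3. Its log2 change of 0.71 ± 0.16 passed the threshold (adjusted p = 0.0173). That call was lost without OMV-SIRP library 2 (adjusted p = 0.0597), without OMV-SIRP-G library 1 (0.0542) and without OMV-SIRP-G library 3 (0.0607). Ptpn6, which encodes SHP-1, was 92.7, 95.3 and 87.4 FPKM against 126, 123 and 129, a smaller difference (log2 change 0.45). Sirpb1c, of the activating SIRP beta family whose members are similar in sequence, so that its reads may be shared with relatives, was 1.31, 1.41 and 1.70 against 4.52, 5.69 and 4.89. Ptk2b, a focal adhesion kinase of myeloid cells, lost its call in some fits (adjusted p up to 0.114, without OMV-SIRP library 2). Without OMV-SIRP libraries 2 and 3, 3 of the 10 passed (median 0.45).

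**Figure D3:**
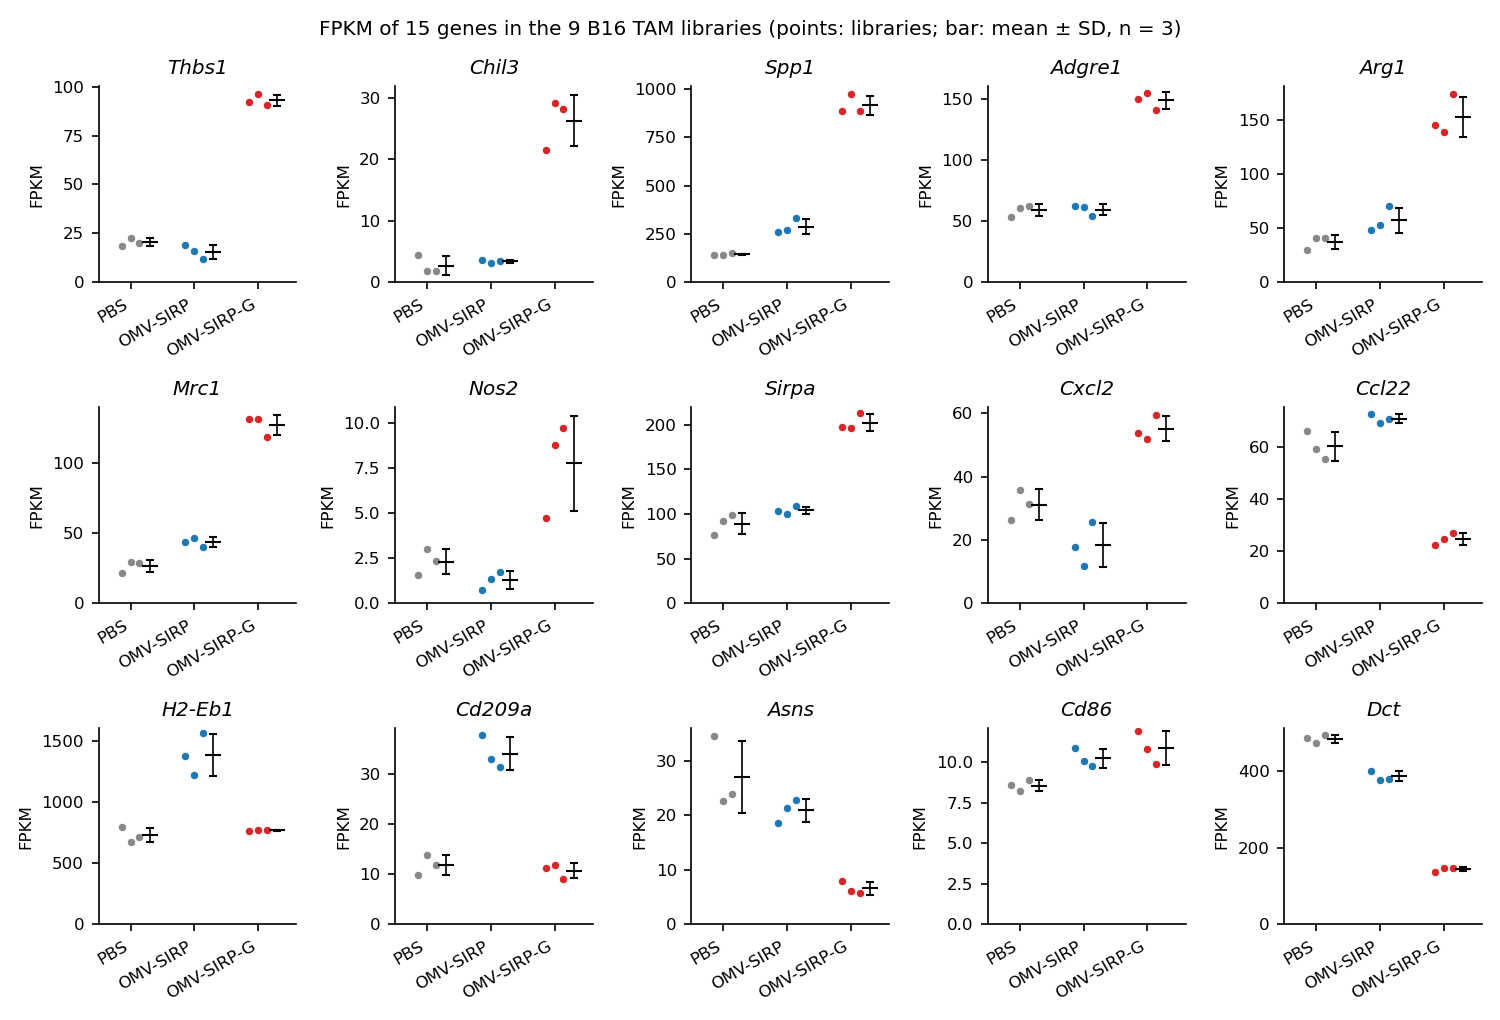
FPKM of 15 genes in the 9 B16 TAM libraries, each point 1 library, with the mean and SD of each group (n = 3) as bars, on axes that start at 0. Thbs1, Chil3, Spp1 and Adgre1 are highest in the OMV-SIRP-G libraries, Ccl22 and Dct are lowest there, and Cd86 overlaps between OMV-SIRP and OMV-SIRP-G.

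Of the 13 macrophage identity genes, 10 rose, with a median log2 change of 1.14, and 10 rose in every fit that left out a library. Those that did not pass were Spi1 (log2 change 0.37, limma adjusted p = 0.131), Cd163 (0.55, 0.305) and Cx3cr1 (0.22, 0.728). Adgre1, which encodes F4/80, was 62.5, 61.9 and 54.3 FPKM in OMV-SIRP and 151, 155 and 142 in OMV-SIRP-G (log2 change 1.31 ± 0.11, adjusted p = 9.41e-05). Csf1r, the receptor for macrophage colony-stimulating factor, was 74.3, 83.0 and 74.3 against 158, 155 and 154. Fcgr1, the high-affinity receptor for immunoglobulin G, was 45.9, 35.9 and 52.5 against 121, 126 and 134. Each of these markers was about as high in PBS as in OMV-SIRP or below it, and separated the OMV-SIRP-G libraries from both other groups. Among all higher genes, 155 had a log2 change above the median of the macrophage identity genes.

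Receptors for uptake and genes of the lysosome rose too, in lists that share members with others. Fcgr1, for example, is a macrophage identity gene and a phagocytosis receptor, and Stab1 is also in the alternative activation list. Ctsb is in the lysosome list and in that of lipid-associated macrophages. Such genes are counted in each of their lists. Of 17 phagocytosis and efferocytosis receptors, 13 rose (median log2 change 0.92), among them Msr1, a scavenger receptor, at 12.7, 11.98 and 12.7 FPKM in OMV-SIRP and 35.8, 36.4 and 35.6 in OMV-SIRP-G. Fcgr3, a low-affinity receptor for immunoglobulin G, was 129, 142 and 138 against 274, 294 and 258. Both genes, chosen among the members of lowest p, were near-constant within a treatment and did not overlap between them. Of 18 lysosome genes, 15 rose (median 0.63). Ctsb, the protease cathepsin B, was 820.5, 836 and 1008 FPKM in OMV-SIRP and 1835, 1905 and 1877 in OMV-SIRP-G, and Lamp1, a membrane protein of the lysosome, was 263, 284 and 321 against 480.0, 509.5 and 502. The motif TCACGTGA, the palindromic E-box bound by TFEB-type factors, was searched on both strands in the 250 bases before the start site of each gene in RefSeq promoters (GRCm38.p6). It stood in 1 of the 12 lysosome genes with a promoter in that set and in 1.67% of all 8928 promoters of tested genes.

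Genes of lipid-associated macrophages, a state described in fatty tissues and tumours, were higher too. Of 14 measured, 11 rose, with a median log2 change of 0.86. Spp1 (ENSMUSG00000029304, chr5:104435118-104441050, plus strand) encodes osteopontin, a secreted protein of tumour macrophages. Its FPKM was 258, 270.5 and 332 in OMV-SIRP and 887, 975 and 887 in OMV-SIRP-G, against 140.2, 143 and 149 in PBS. The 3 groups were fully separated, lowest in PBS and highest in OMV-SIRP-G, and the log2 change between the treatments was 1.68 ± 0.11 (adjusted p = 3.52e-05). Cd36, a receptor for fatty acids and lipoproteins, was 27.8, 33.1 and 28.7 FPKM in OMV-SIRP and 66.0, 71.2 and 72.4 in OMV-SIRP-G. Fabp5, an intracellular fatty acid carrier, was 174, 153 and 212 against 358, 349 and 341. Macrophage identity genes were also higher in these libraries (median log2 change 1.14), and their part in the lipid-associated list was not tested.

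Markers commonly used for inflammatory and alternative activation changed on both sides. Arg1 (ENSMUSG00000019987, chr10:24915221-24927484, minus strand), the arginine-degrading enzyme of alternatively activated macrophages, was 48.4, 52.5 and 70.1 FPKM in OMV-SIRP and 145, 139 and 174 in OMV-SIRP-G (log2 change 1.42 ± 0.17, adjusted p = 0.000732). Nos2, the nitric oxide synthase of inflammatory macrophages, which uses the same substrate, was 0.732, 1.35 and 1.72 against 4.74, 8.77 and 9.73 (log2 change 1.92 ± 0.29, adjusted p = 0.00229). Both genes were higher in 3 of 3 OMV-SIRP-G libraries than in any OMV-SIRP or PBS library. Mrc1, the mannose receptor CD206, was 44.0, 46.6 and 39.9 FPKM against 131, 131 and 119 (log2 change 1.53 ± 0.13). Cd86, a costimulatory ligand for T cells, was 10.9, 10.1 and 9.78 against 11.9, 10.8 and 9.88, and the groups overlapped (log2 change 0.08 ± 0.14, adjusted p = 0.774).

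Across the alternative activation list, 6 of 14 genes rose and 2 fell (median 0.62), against 5 and 1 (median 0.75) without OMV-SIRP libraries 2 and 3. The genes that rose included Stab1, a scavenger receptor, at 98.8, 108 and 80.5 FPKM in OMV-SIRP and 209, 205 and 191 in OMV-SIRP-G. The genes that fell were Mgl2, a lectin, and Ccl22, a chemokine of dendritic cells and macrophages that attracts regulatory T cells. Ccl22 (ENSMUSG00000031779, chr8:94745590-94751699, plus strand) was 72.7, 69.1 and 70.6 FPKM in OMV-SIRP and 22.5, 24.7 and 27.0 in OMV-SIRP-G, and PBS (66.0, 59.1 and 55.3) lay near OMV-SIRP (log2 change -1.48 ± 0.11, adjusted p = 6.57e-05). Of 11 inflammatory activation genes, 2 rose, Nos2 and Ptgs2, and 1 fell, Il12b (median 0.10), against 1 and 0 (median 0.11) without OMV-SIRP libraries 2 and 3. Il12b, the p40 subunit of interleukin 12, was 12.5, 17.5 and 12.5 FPKM against 7.93, 4.30 and 6.19, and its call was lost without OMV-SIRP library 2 (adjusted p = 0.0559) and without OMV-SIRP-G library 2 (0.0516). Ptgs2, the inducible cyclooxygenase, was at 1.90, 1.30 and 0.726 against 5.80, 3.13 and 2.43. Its adjusted p of 0.0468 rose above 0.05 in 7 of the 9 fits that left out a library, up to 0.144 without OMV-SIRP-G library 1.

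Genes of antigen presentation by MHC class II were lower under OMV-SIRP-G. Of 11 genes measured, 7 fell and 1 rose (median -0.69), and the number that fell was 4 without OMV-SIRP-G library 2 and also 4 (median -0.66) without OMV-SIRP libraries 2 and 3. H2-Eb1, a beta chain of the class II molecule (chr17:34305867-34316674, plus strand), was 1373, 1219 and 1560.3 FPKM in OMV-SIRP and 762, 771 and 769 in OMV-SIRP-G (log2 change -0.84 ± 0.11, adjusted p = 0.000874). Its PBS libraries, at 792, 676 and 716, lay at the OMV-SIRP-G level, so that OMV-SIRP was the high group. Cd74, the invariant chain, was 4133, 3946 and 4236 against 2444, 2662 and 2729. H2-DMb2, of the peptide-loading complex, was 46.4, 37.2 and 50.3 against 19.9, 22.6 and 19.8. The member that rose was Ctss, the protease that cuts the invariant chain and is also abundant in macrophages, at 737, 628 and 941 against 1509, 1557 and 1795. In MHC class I and peptide loading, 3 of 13 genes rose (median 0.07). They were B2m, H2-D1 and H2-K1, the light chain and the classical heavy chains. B2m was 1496, 1338 and 1860.0 FPKM against 2447, 2628 and 2379. H2-K1 (531, 528 and 703 against 821, 816 and 825) lost its call in 5 of the 9 fits that left out a library (adjusted p up to 0.0817, without OMV-SIRP library 1). H2 genes are similar in sequence, so reads could be split between them.

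Dendritic cell genes fell beside the class II genes. Of 12 measured, 9 fell (median -0.96), 5 without OMV-SIRP library 2 and 4 (median -0.95) without OMV-SIRP libraries 2 and 3. Their summed FPKM was 375 to 395 in OMV-SIRP, 158 to 167 in OMV-SIRP-G and 291 to 320 in PBS. Ccr7, the receptor that guides mature dendritic cells to lymph nodes, was 106, 100.5 and 95.4 FPKM in OMV-SIRP and 40.8, 41.7 and 46.6 in OMV-SIRP-G (log2 change -1.21 ± 0.10, adjusted p = 9.41e-05). Fscn1, an actin-bundling protein of mature dendritic cells that tumour cells can also make, was 169.8, 168 and 171 against 59.7, 68.5 and 71.1. Cd209a, a lectin of monocyte-derived dendritic cells, was 37.7, 32.9 and 31.4 against 11.3, 11.8 and 8.93, with OMV-SIRP-G overlapping PBS (9.80, 13.7 and 11.7). Flt3, the receptor of the dendritic cell growth factor, was 19.9, 17.2 and 15.8 against 8.28, 9.47 and 5.98. These 4 genes were the members of lowest p, a choice that favours treatments without overlap, and none of them overlapped. The part of dendritic cell abundance in the lower class II genes was not tested.

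Chemokine genes were mostly higher. Of 18 measured, 11 rose and 1, Ccl22, fell (median 1.03), beside a median of 1.14 for macrophage identity genes. Ccl6 and Ccl9, chemokines of myeloid cells, went from 313, 311 and 377 to 739, 749 and 776 FPKM and from 117, 94.8 and 129 to 253, 273 and 294. Cxcl3, a neutrophil attractant, was 1.46, 2.41 and 3.06 in OMV-SIRP and 14.9, 13.7 and 19.2 in OMV-SIRP-G (log2 change 2.37 ± 0.22, adjusted p = 0.000189). Its relatives Cxcl1 and Cxcl2, which bind the same receptor, were higher in every OMV-SIRP-G library too. Cxcl2 was 17.7, 11.7 and 25.6 FPKM against 53.8, 51.9 and 59.6 (log2 change 1.60 ± 0.23, adjusted p = 0.00188), and Cxcl1 was 2.79, 3.35 and 2.25 against 8.21, 11.5 and 7.84 (1.42 ± 0.22, adjusted p = 0.00283). Of 17 genes of the toll-like receptor (TLR) and NF-kB response, 7 rose and 1, Relb, fell (median 0.52, beside the 1.14 of macrophage identity genes). Tlr2, the receptor for bacterial lipoproteins, was 17.9, 16.5 and 14.9 FPKM against 38.5, 30.8 and 28.5, and Il1a, the cytokine interleukin 1 alpha, was 1.09, 0.263 and 0.0374 against 2.67, 4.32 and 3.17. The call of Relb, an NF-kB subunit, was lost in some fits (adjusted p up to 0.0776, without OMV-SIRP-G library 3). The number of this list that rose was 4 without OMV-SIRP-G library 2 and 2 (median 0.39) without OMV-SIRP libraries 2 and 3, where none fell.

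The promoters of Cxcl1 and Cxcl2 are shown because the pair moved together and both hold the NF-kB motif, GGGA followed by any base and TTTCC, searched on both strands. They are the 250 bases before the start site in RefSeq (GRCm38.p6), at chr5:90890995-90891244 for Cxcl1 and chr5:90903649-90903898 for Cxcl2, both on the plus strand. Capitals mark the motif, which begins 71 and 97 bases before the start site.
Cxcl1: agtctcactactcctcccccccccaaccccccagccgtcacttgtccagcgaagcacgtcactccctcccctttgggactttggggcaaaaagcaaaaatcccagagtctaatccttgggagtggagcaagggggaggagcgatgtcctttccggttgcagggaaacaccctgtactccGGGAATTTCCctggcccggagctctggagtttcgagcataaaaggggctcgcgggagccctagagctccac
Cxcl2: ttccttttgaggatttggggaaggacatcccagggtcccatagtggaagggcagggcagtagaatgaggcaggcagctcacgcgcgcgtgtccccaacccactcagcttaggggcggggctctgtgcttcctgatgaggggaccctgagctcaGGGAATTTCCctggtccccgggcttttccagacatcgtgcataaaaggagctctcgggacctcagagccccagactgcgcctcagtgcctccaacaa
The motif was in 3 of 14 TLR and NF-kB response genes with a promoter in the set, and in 0.347% of all 8928 promoters. The third gene was Nfkbia, which encodes an inhibitor of NF-kB and also rose (adjusted p = 0.0345, up to 0.114 without OMV-SIRP-G library 3). A match describes the letters of the window and not a bound site.

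Interferon-stimulated genes were higher in part. Of 20 measured, 10 rose (median 0.59, beside the 1.14 of macrophage identity genes), but the number was 5 without OMV-SIRP-G library 2, 5 (median 0.64) without OMV-SIRP libraries 2 and 3, and 6 without PBS library 3, OMV-SIRP library 1 or 3, or OMV-SIRP-G library 1. Oasl1, a regulator of translation, was 9.98, 12.4 and 19.6 FPKM in OMV-SIRP and 34.7, 33.6 and 33.7 in OMV-SIRP-G. Irf7, the transcription factor that amplifies type I interferon, was 47.9, 43.6 and 55.4 against 76.1, 84.0 and 92.0. Rsad2, which encodes the antiviral enzyme viperin, was 5.38, 4.98 and 4.68 against 11.8, 10.002 and 12.4 (log2 change 1.04 ± 0.15, adjusted p = 0.00161), and its PBS libraries (8.09, 7.62 and 7.14) lay between. These 3 genes kept their call whichever library was left out. Of 14 interferon-gamma GTPases and targets, 1 rose (median 0.13), Cd274, which encodes the checkpoint ligand PD-L1, at 10.1, 9.68 and 7.87 FPKM against 14.8, 18.6 and 15.8 (adjusted p = 0.00845). The call of Cd274 was lost without OMV-SIRP libraries 2 and 3 (adjusted p = 0.11), where the list median was 0.40.

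The promoter of Rsad2 is shown as an interferon-stimulated gene that rose and holds the interferon-stimulated response element, GAAA repeated after any 2 bases, searched on both strands. The window is chr12:26456453-26456702 on the minus strand, and the capitals mark the element on the opposite strand, beginning 120 bases before the start site.
Rsad2: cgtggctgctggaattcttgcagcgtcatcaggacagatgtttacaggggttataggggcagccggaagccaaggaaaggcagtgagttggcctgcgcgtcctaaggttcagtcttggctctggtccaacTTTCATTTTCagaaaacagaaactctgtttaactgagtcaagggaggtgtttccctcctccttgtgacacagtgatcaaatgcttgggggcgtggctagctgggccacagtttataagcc
Of 15 interferon-stimulated genes with a promoter in the set, 7 held the element, against 2.87% of all 8928 promoters. Of the 8 among them that rose, 4 held it.

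Further signalling groups divided as follows, beside the median of 1.14 for macrophage identity genes. Of 16 genes of colony-stimulating factor receptors and STAT5 targets, 7 rose and 1 fell (median 0.47), the latter being Socs2 (adjusted p = 0.0398, up to 0.114 without OMV-SIRP library 1). Csf2ra, a receptor chain for GM-CSF, was 59.3, 54.5 and 69.7 FPKM against 115, 97.9 and 129.6, and Bcl2l1, a survival gene, was 21.6, 25.0 and 29.1 against 55.8, 48.98 and 59.4. Of 18 immediate-early genes, 9 rose (median 0.54), against 6 of 17 (median 0.77) without OMV-SIRP libraries 2 and 3. Among them were Dusp1, a phosphatase that switches off MAP kinases, at 43.3, 37.0 and 43.3 against 87.5, 82.7 and 81.6, and Atf3, a stress-induced transcription factor, at 44.5, 42.5 and 36.8 against 89.7, 97.7 and 77.7. Their PBS levels, 82.5 to 97.4 for Dusp1 and 47.8 to 56.1 for Atf3, place Dusp1 in OMV-SIRP-G near PBS and Atf3 above it. The CRE motif TGACGTCA, on both strands, was in 1 of 15 immediate-early promoters and in 2.68% of all promoters. Without OMV-SIRP libraries 2 and 3, 6 of the colony-stimulating factor list rose and none fell (median 0.60). Of 11 complement genes, 6 rose and 1 fell (median 0.53), the latter being C2 (adjusted p = 0.047, up to 0.132 without OMV-SIRP-G library 3), against 6 and 0 (median 1.06) without OMV-SIRP libraries 2 and 3. The receptors C3ar1 (33.4, 28.7 and 31.1 against 67.8, 77.7 and 67.3 FPKM) and C5ar1 (49.2, 55.8 and 51.2 against 120.1, 105 and 125) rose with C1qb, a chain of the first component, at 1131, 1166 and 1649 against 2477, 2459 and 2490.1.

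Of 14 matrix remodelling genes, 9 rose and 1, Adamts1, fell (median 0.72, beside the 1.14 of macrophage identity genes), and 3 rose (median 0.59) without OMV-SIRP libraries 2 and 3. Adam8, a surface metalloprotease, was 117, 123 and 113 FPKM against 259.8, 258 and 267, with nearly no spread inside a treatment. Mmp12, the macrophage elastase, was 38.5, 30.1 and 32.3 against 58.1, 62.9 and 52.2. Of 13 costimulatory and coinhibitory ligands, 3 rose (median 0.08). They were Cd274, Lgals9 and Vsir, the last of which encodes the checkpoint molecule VISTA. The count was 1 without OMV-SIRP library 1 or 2 or OMV-SIRP-G library 1 or 2, and 1 (median 0.02) without OMV-SIRP libraries 2 and 3. Lgals9 (71.6, 78.2 and 91.7 FPKM against 118, 123 and 114) had adjusted p-values up to 0.0814 in these fits, and Vsir (33.8, 32.2 and 35.1 against 58.8, 57.6 and 42.3) up to 0.0942.

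Pigment cell genes fell as a block. All 12 melanocyte genes were lower, with a median log2 change of -1.42, and all 12 were called in every fit that left out 1 library. Dct (ENSMUSG00000022129, chr14:118012790-118052244, minus strand), an enzyme of melanin synthesis, was 401, 378 and 379 FPKM in OMV-SIRP and 137, 147 and 148 in OMV-SIRP-G, against 487, 472 and 493 in PBS. The 3 groups did not overlap (log2 change between the treatments -1.42 ± 0.08, adjusted p = 3.37e-05). Pmel, a structural protein of pigment granules, was 1198, 1105 and 1110.4 against 318, 386 and 372, and Sox10, a transcription factor of the neural crest lineage, was 81.4, 79.8 and 78.6 against 27.0, 19.8 and 17.5. Among all lower genes, 194 had a log2 change below the median of the melanocyte genes. How many of the other lower genes are transcribed in the melanoma cells was not tested.

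The promoter of Dct is shown because pigment genes moved together and Dct holds the M-box TCATGTG, the site of the melanocyte factor MITF, searched on both strands. The window is chr14:118052247-118052496 on the minus strand, with capitals at the motifs, which begin 232 and 151 bases before the start site, the first on the opposite strand.
Dct: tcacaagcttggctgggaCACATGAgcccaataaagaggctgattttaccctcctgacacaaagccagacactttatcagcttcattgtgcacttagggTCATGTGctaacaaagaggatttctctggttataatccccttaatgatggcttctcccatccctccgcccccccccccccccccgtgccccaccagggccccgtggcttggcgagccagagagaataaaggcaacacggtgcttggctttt
Of the 7 melanocyte genes with a promoter in the set, 5 held the motif, against 2.0% of all 8928 promoters. Mitf itself, which macrophages and mast cells also express, was among the 12 genes that fell.

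Several biosynthetic genes fell. Of 16 cholesterol synthesis genes, 8 fell (median -0.53), and 2 fell without OMV-SIRP libraries 2 and 3, where the median was -0.65. Fdft1, which encodes squalene synthase, was 17.4, 19.9 and 18.8 FPKM in OMV-SIRP and 10.2, 10.4 and 7.73 in OMV-SIRP-G, and Cyp51, which removes a methyl group from lanosterol, was 34.2, 31.6 and 33.6 against 16.4, 23.2 and 18.7. The sterol element TCACNCCAC, on both strands, was in 1 of 11 promoters of this list and in 1.03% of all promoters. Of 13 amino acid stress genes, 5 fell, Asns, Phgdh, Shmt2, Slc7a5 and Mthfd2 (median -0.54), and 2 fell (median -0.39) without OMV-SIRP libraries 2 and 3. Phgdh, the first enzyme of serine synthesis, was 39.0, 48.3 and 42.3 FPKM against 15.2, 14.9 and 16.2 (log2 change -1.42 ± 0.13, adjusted p = 0.000158). Asns, which makes asparagine, was 18.6, 21.3 and 22.7 against 7.99, 6.10 and 5.66 (-1.54 ± 0.19, adjusted p = 0.00071). Both were high in every OMV-SIRP and PBS library and low in every OMV-SIRP-G library. Slc7a5, Shmt2 and Mthfd2 lost their call in at least 1 fit (adjusted p up to 0.0508 without OMV-SIRP library 2, 0.0621 without OMV-SIRP-G library 2 and 0.0647 without OMV-SIRP-G library 3). Melanocyte genes were also lower in these libraries (median log2 change -1.42), and their part in the biosynthetic genes was not tested.

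The promoter of Asns is shown as the member of this list that fell and holds the amino acid response motif TGATGNAA, the letters bound by CHOP and ATF4 dimers, searched on both strands. The window is chr6:7693210-7693459 on the minus strand, and the capitals begin 23 bases before the start site.
Asns: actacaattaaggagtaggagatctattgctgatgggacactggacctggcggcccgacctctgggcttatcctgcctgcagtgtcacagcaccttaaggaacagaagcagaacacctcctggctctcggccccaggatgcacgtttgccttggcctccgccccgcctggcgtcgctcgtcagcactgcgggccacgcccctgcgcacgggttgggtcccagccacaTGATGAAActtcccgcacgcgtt
The motif was in 2 of 12 promoters of amino acid stress genes and in 1.95% of all 8928 promoters. The other was in Chac1, which did not pass the test, and Atf4 had a log2 change of -0.10 that did not pass it either.

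Genes of energy metabolism changed in both directions. Of 14 glycolysis genes, 4 fell, Pfkl, Tpi1, Pgk1 and Eno1, and 1 rose (median -0.24, beside the -1.42 of melanocyte genes). Pfkl, a subunit of phosphofructokinase, was 56.2, 55.2 and 54.1 FPKM against 36.9, 38.5 and 41.4, while Slc2a1, the glucose transporter, rose from 48.9, 53.6 and 57.5 to 89.0, 95.1 and 93.7. The number of glycolysis genes that fell was 1 without OMV-SIRP-G library 3 and 2 without PBS library 3, OMV-SIRP library 1 or OMV-SIRP-G library 2, and 7 on recovered reads with limma voom. It was 1 (median -0.30) without OMV-SIRP libraries 2 and 3. Of 13 hypoxia and angiogenesis genes, 3 rose and 2 fell (median 0.28), against 2 and 0 (median 0.22) without OMV-SIRP libraries 2 and 3. Egln3, a prolyl hydroxylase induced by hypoxia, was 8.41, 7.98 and 8.54 FPKM against 27.4, 22.0 and 23.6, and Car9, a carbonic anhydrase of hypoxic tumour cells, was 23.8, 23.3 and 24.7 against 15.1, 13.2 and 10.1. The other gene of this list that fell was Mif, whose call was lost in some fits (adjusted p up to 0.106, without OMV-SIRP-G library 2), so that the number that fell was 1 without PBS library 3 or OMV-SIRP-G library 1, 2 or 3. Of 16 oxidative phosphorylation genes of the nucleus, 1 fell (median -0.20), Atp5b, and its call was lost in 7 of the 9 fits that left out a library, with adjusted p up to 0.122 without OMV-SIRP-G library 1, and was also lost without OMV-SIRP libraries 2 and 3 (list median -0.11). Of 13 mitochondrially encoded genes, 6 fell (median -0.55), against 4 (median -0.66) without OMV-SIRP libraries 2 and 3, with mt-Cytb, a subunit of the third respiratory complex, at 35269, 29982 and 35732 against 20811, 21062 and 19749.6.

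In iron and oxidative stress, 3 of 12 genes rose, Hmox1, Slc11a1 and Fth1, and 1 fell (median 0.23), against 4 and 0 (median 0.29) without OMV-SIRP libraries 2 and 3. Sqstm1, an adaptor of autophagy, fell from 202, 198 and 211 to 161, 158 and 154 (limma adjusted p = 0.0428). Its call was lost when any OMV-SIRP or OMV-SIRP-G library was left out (adjusted p up to 0.12, without OMV-SIRP-G library 3). It was also lost without PBS library 2 or 3, and in the limma fit of only the 6 libraries compared (adjusted p = 0.0624). Hmox1, which breaks down haem, was 457, 442 and 517 FPKM against 836, 839.6 and 957, and Slc11a1, the iron transporter of phagosomes, was 58.4, 54.1 and 61.7 against 107, 102 and 118. Of 12 heat shock genes, 2 rose and 4 fell, Hsp90aa1, Hspd1, Hspe1 and Hspa8 (median -0.21, beside the -1.42 of melanocyte genes), against 1 and 1 (median -0.11) without OMV-SIRP libraries 2 and 3. The inducible pair Hspa1a and Hspa1b, near-identical copies whose reads cannot be assigned with certainty, were at 23.0, 23.8 and 20.9 against 40.7, 37.0 and 36.6 and at 24.9, 32.5 and 25.2 against 49.2, 52.4 and 45.9, while the chaperone Hsp90aa1 was 151, 133 and 119 against 79.8, 89.6 and 90.6. The number of heat shock genes that fell was 1 without OMV-SIRP library 1 or OMV-SIRP-G library 2, and 2 without PBS library 2 or 3 or OMV-SIRP-G library 1 or 3. Of 18 ribosomal protein genes, 2 fell, Rpsa and Rplp0 (median -0.23), and fewer than 2 did so in 7 of the 9 fits that left out a library and none (median -0.17) without OMV-SIRP libraries 2 and 3. Of 18 cell cycle genes, 1 passed the test (median -0.18), Pcna, the sliding clamp of replication, at 83.3, 72.5 and 90.3 FPKM against 103, 113 and 103, and its call was lost in 8 of 9 such fits (adjusted p up to 0.153 without OMV-SIRP-G library 2) and without OMV-SIRP libraries 2 and 3 (list median -0.27).

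**Figure D4:**
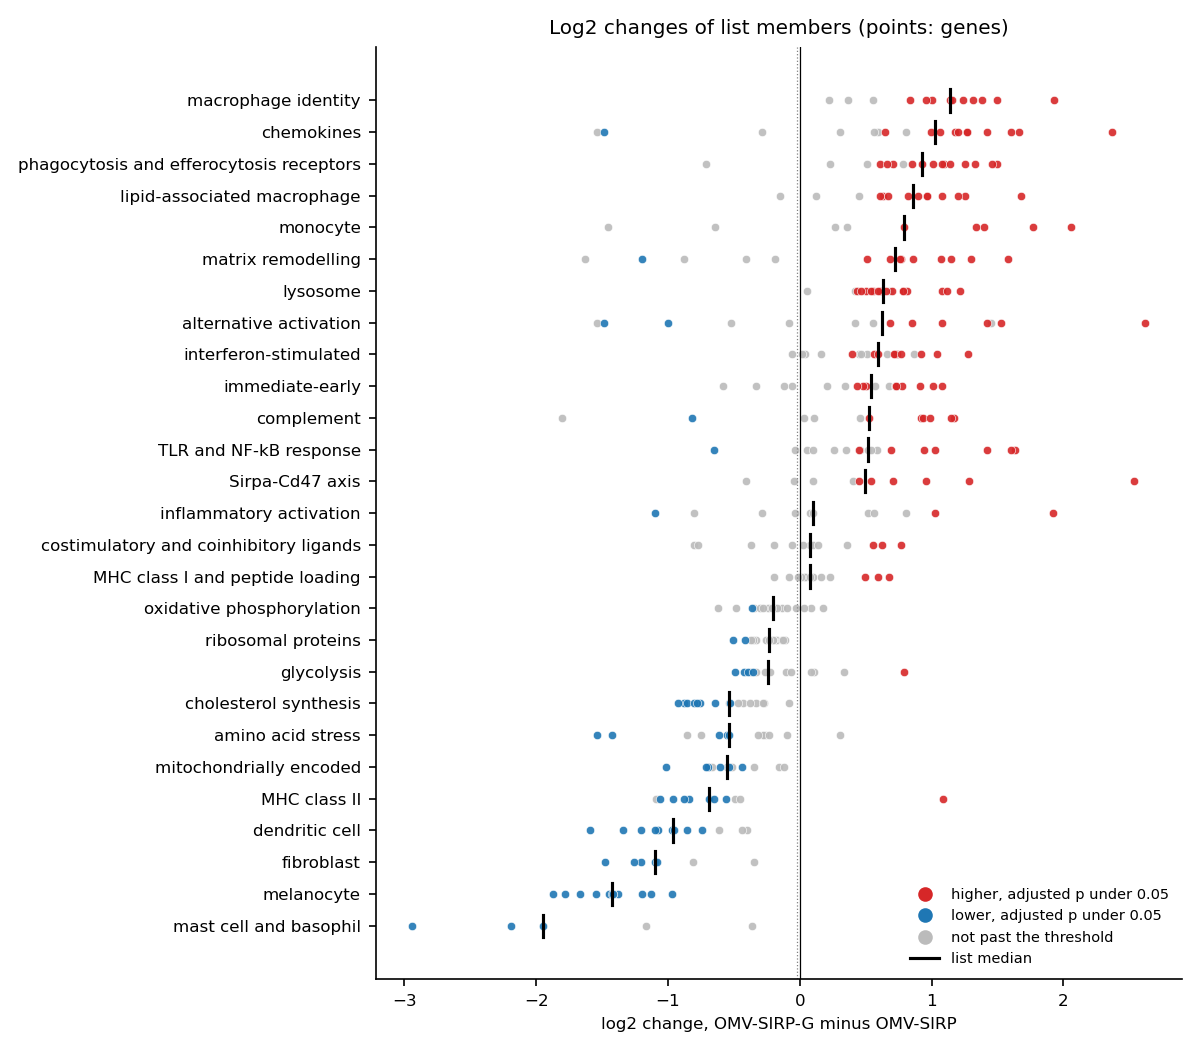
Log2 changes (OMV-SIRP-G minus OMV-SIRP) of the members of 27 gene lists, each point 1 gene, coloured by whether it passed an adjusted p of 0.05, with the list median as a black bar and the median of all genes tested as a dotted line. Medians run from 1.14 for macrophage identity to -1.42 for melanocyte and -1.95 for mast cell and basophil genes.

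Markers of other leukocytes moved in several directions. Of 9 monocyte genes, 5 rose, Ly6c2, F13a1, Ccr2, Vcan and Fn1 (median 0.79), 3 without OMV-SIRP-G library 2 and 3 (median 0.91) without OMV-SIRP libraries 2 and 3. Fn1, which encodes fibronectin, was at 21.6, 27.1 and 16.9 FPKM against 64.5, 57.7 and 53.3. Ccr2, the receptor that draws monocytes from the blood, was 10.4, 12.3 and 9.002 against 18.4, 21.8 and 16.6, and lost its call without OMV-SIRP-G library 2 (adjusted p = 0.0554). Of 8 neutrophil genes, 2 rose, Csf3r and Mmp8, and 1, Il1r2, fell (median 0.25), against 1 and 0 (median 0.86) without OMV-SIRP libraries 2 and 3. Mmp8 lost its call in 6 of 9 fits (adjusted p up to 0.131, without OMV-SIRP library 1). Csf3r, the G-CSF receptor, was 8.37, 10.4 and 8.76 against 16.6, 17.7 and 20.4, while S100a8, an abundant neutrophil gene, was 0.930, 0 and 0.851 against 1.33, 5.03 and 3.95 and did not pass. None of 12 T cell genes passed limma's test (3 had an unadjusted p under 0.05, and 1 passed with voom), and none of 12 natural killer (NK) and cytotoxic genes did (1 and 0). The summed T cell genes were 94.6 to 113 FPKM in OMV-SIRP, 92.7 to 113 in OMV-SIRP-G and 234 to 306 in PBS, so both vesicle treatments lay below PBS and overlapped each other. Of 6 B cell genes, 1 fell, Cd79a, a part of the B cell receptor, at 9.45, 6.98 and 10.7 against 4.20, 1.37 and 2.03, and 4 fell without PBS library 1, and 0 of 5 without OMV-SIRP libraries 2 and 3 (median -0.92, against -0.99 for the 6).

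Mast cell proteases were detected under OMV-SIRP and not under OMV-SIRP-G. Of 5 mast cell and basophil genes measured, 3 fell, Mcpt4, Cma1 and Tpsb2, which encode proteases stored in mast cell granules (median -1.95), and 2 fell (median -1.69) without OMV-SIRP libraries 2 and 3. Mcpt4 was 5.11, 7.49 and 7.73 FPKM in OMV-SIRP, 4.27, 2.47 and 2.26 in PBS and 0 in every OMV-SIRP-G library. Against a limit of 3 reads per library, Mcpt4 was at least 37.4-fold lower, Tpsb2 at least 23.4-fold and Cma1 at least 20.6-fold. Counting error alone is covered by that limit. Cpa3, another mast cell protease, was 2.22, 2.52 and 0 in OMV-SIRP and also 0 in every OMV-SIRP-G library, and did not pass (adjusted p = 0.166).

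Stromal and blood cell genes completed the check. Of 7 fibroblast genes, 5 fell (median -1.10, beside the -1.42 of melanocyte genes), at a sum of 101 to 108 FPKM in OMV-SIRP and 48.8 to 56.8 in OMV-SIRP-G. Sparc, a matrix glycoprotein that melanoma cells can also make, supplied most of it at 59.7, 62.3 and 60.5 against 27.4, 29.99 and 27.0. The number that fell was 2 without OMV-SIRP library 2 or 3, 3 without OMV-SIRP-G library 3, and 1 of 6 (median -0.96) without OMV-SIRP libraries 2 and 3. Of 5 endothelial genes, 1 fell, Plvap (median -0.79), and the call was lost in 4 of the 9 fits that left out a library (adjusted p up to 0.0794, without OMV-SIRP-G library 2), and none of 4 fell (median -0.38) without OMV-SIRP libraries 2 and 3. None of 4 epithelial genes passed limma's test (0 had an unadjusted p under 0.05, and 0 passed with voom), and neither did the 1 skeletal muscle gene and the 1 eosinophil gene measured. The 1 adipocyte gene measured, Fabp4, which macrophages express too, was 7.03, 6.94 and 12.3 against 14.8, 20.5 and 15.1 (adjusted p = 0.0383, up to 0.124 without OMV-SIRP-G library 2). Red cell genes summed to 2220 to 3100 FPKM in OMV-SIRP, 3230 to 3270 in OMV-SIRP-G and 16500 to 17900 in PBS, and 1 of 5 rose, Hbb-bs (adjusted p = 0.0366), a call lost in 7 of 9 such fits. Of 3 platelet genes, 2 rose, the chemokines Pf4 and Ppbp, which monocytes and macrophages can also express, and 1 fell, Itgb3, whose call was lost in 7 of 9 such fits (adjusted p up to 0.112, without OMV-SIRP-G library 2). Pf4 was 265, 247 and 438 FPKM against 721, 829 and 815, and Ppbp was 10.4, 9.03 and 10.1 against 39.2, 53.9 and 34.9. Of 8 replication-dependent histone genes, 1 rose (median 0.14), Hist1h1c, at 37.3, 27.1 and 42.9 FPKM against 57.3, 77.6 and 72.7.

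The 15 largest decreases under the naming rule were those of Ctrb1, Prss2, Cela2a, Try4, Clps, Cpa1, Reg2, Pnliprp1, Reg1, Cel, 2210010C04Rik, Rnase1 and Pnlip, known from the exocrine pancreas, and Fga and Gc, secreted by the liver. Ctrb1, which encodes chymotrypsinogen, was 34.6, 281 and 583 FPKM in OMV-SIRP, 81.2, 172 and 318 in PBS, and 0, 2.43 and 0 in OMV-SIRP-G (log2 change -6.90 ± 1.05, adjusted p = 0.00566). Prss2, a trypsinogen, was 10.8, 81.5 and 152 against 0 in every OMV-SIRP-G library, and its relatives in the trypsin family could share reads. Within OMV-SIRP, library 1 was low and library 3 high for both genes, and on recovered reads with limma voom none of the 15 passed (adjusted p 0.214 to 0.667). The log2 changes in that fit, which does not use the log2(FPKM + 1) scale, were -10.16 for Ctrb1 and -10.31 for Prss2. Of 23 exocrine pancreas genes measured, 13 fell in the fit used here (median -3.53), 2 of 22 without OMV-SIRP libraries 2 and 3 (median -1.49), 8 without OMV-SIRP library 2, 7 without OMV-SIRP-G library 2, and 1 on recovered reads with limma voom (median -7.95). Liver genes, a list also chosen after values were seen, summed to 131, 771 and 1475 FPKM in OMV-SIRP. The sums were 495, 1078 and 1037 in PBS and 8.28, 3.03 and 170.3 in OMV-SIRP-G. Of 24 liver genes, 13 fell (median -3.27), 0 without OMV-SIRP libraries 2 and 3 (median -1.55) and 2 with voom (median -6.93), and single libraries moved the count from 2 (without OMV-SIRP or OMV-SIRP-G library 2) to 22 (without OMV-SIRP library 1), with 3 without OMV-SIRP-G library 1 and 7 without OMV-SIRP library 3.

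The same contrast in TAM of MC38 colon carcinoma, fitted in its own table with 3 libraries a group, called 54 of 14089 genes (0.383%), 21 higher and 33 lower under OMV-SIRP-G. Each table carries its own scaling, and no test was made between them. In addition, OMV-SIRP library 3 of MC38 stood apart from its replicates. Side by side, Thbs1 had a log2 change of 2.53 in B16 and -0.47 in MC38, and Chil3 2.62 and 0.10. For Spp1 the pair was 1.68 and 0.73, for Arg1 1.42 and 0.57, for Nos2 1.92 and 0.76, for Mrc1 1.53 and -0.33, and for Sirpa 0.95 and 0.20. None of these 7 genes passed the threshold in MC38 (limma adjusted p 0.632 to 0.956). Cd86, which did not pass in B16, had a log2 change of 1.35 in MC38 that did not pass either (adjusted p = 0.142).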

How the data were processed

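RNA sequencing was done on mRNA extracted with TRIzol, per the labels' protocols. The authors deposited a table with FPKM per gene for the 9 B16 TAM libraries. The submitters' processing notes name GRCm38, HISAT2 2.0.5, StringTie and featureCounts 1.5.0-p3, with no role or order. FPKM times gene length gave whole reads for all values, within 0.05 reads, and showed that the deposited values already carry a scaling between libraries (factors 0.976 to 1.05). Genes with at least 1 FPKM in at least 3 of the 9 libraries were fitted as log2(FPKM + 1) with limma 3.58.1 (R 4.3.3, statmod 1.5.0, trend and robust) over all 3 groups. Benjamini-Hochberg adjustment ran over all genes tested, with a threshold of 0.05. Changes on this scale understate those of low genes. Positions of genes are from the deposited table. Named genes were the 15 largest and 15 smallest log2 changes among protein-coding genes past the threshold, without overlap and with a mean of at least 5 FPKM, up to 4 members with the lowest p in each list, and the set Cd86, Mrc1, Nos2, Arg1, Cd47 and Sirpa. One gene that this rule names is not reported here. The comparison and the lists were chosen with earlier results of these data known. Same-numbered replicates did not deviate together (correlations 0.000101 to 0.0779), so the fit had no block. Alternatives were another pseudocount, no filter, equal total reads, the 6 libraries alone, a replicate block, limma voom on recovered reads and leaving out libraries.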

Additional observations from a re-analysis of the deposited data

Results flagged for a closer look

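The following genes had a difference between OMV-SIRP-G and OMV-SIRP without overlap in B16 TAM. In MC38 TAM they had an opposite difference without overlap. Each model had 3 libraries a treatment. The genes were sought only among the 188 named genes, of which 145 were called in B16. The share of all genes with such opposite differences was not counted, and 3 against 3 libraries can separate by chance. The difference between the models was not tested, the tables were scaled separately, and OMV-SIRP library 3 of MC38 stood apart. Ccr7 had a log2 change of -1.21 in B16 and 2.65 in MC38, where it was 37.4, 72.7 and 462 FPKM in OMV-SIRP and 685, 646 and 727 in OMV-SIRP-G. Fscn1 changed by -1.34 in B16 and 1.82 in MC38 (limma adjusted p = 0.0438), and Ccl22 had values of -1.48 and 2.47. Flt3 had values of -1.08 and 1.74, and Il12b of -1.10 and 1.83. These 5 genes are expressed by dendritic cells. Vcam1 changed by 1.76 in B16 and -1.37 in MC38 (limma adjusted p = 0.0489), where it was 11.6, 8.82 and 8.70 FPKM in OMV-SIRP and 2.96, 2.72 and 3.67 in OMV-SIRP-G. Adgre1 had values of 1.31 and -0.90, C1qb of 0.93 and -0.58, and C1qc of 0.99 and -0.73. For H2-DMb2 they were -1.06 and 0.74, for Il1r2 -1.16 and 0.96, for Itgb3 -1.13 and 0.70, for Pcna 0.37 and -0.18, and for Hbb-bs 0.36 and -0.91. Prss2 had a log2 change of -5.73 in B16 and was not tested in MC38, where it was 0, 0 and 0.626 FPKM in OMV-SIRP and 1.01, 3.26 and 0.948 in OMV-SIRP-G. Apart from Vcam1 and Fscn1, none of them passed the threshold in MC38.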

How the results depend on the processing

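Against 1502 genes called (797 higher, 705 lower), no filter on low FPKM gave 925 (529 higher, 396 lower), with 25744 genes tested. A fit of only the 6 libraries compared gave 991, of which 425 were lower. OMV-SIRP library 1 as the lone OMV-SIRP library, an alternative chosen after seeing the data, gave 611 (399 higher, 212 lower), and 65.3% of these were higher against 53.1%. Leaving out each library in turn gave 1005 to 1495 genes, 519 to 801 higher and 448 to 694 lower. The fit with a replicate block gave 1329 genes, 1239 of them among the 1502, although the numbers do not pair the libraries. Limma voom on recovered reads gave 1649. Of 145 named genes that were called, 90 kept the call under every alternative and 0 reversed. Some genes that were not called reversed. With the lone library, Cd86 was -0.0050, Cd8a -0.021, Krt18 0.032, Prf1 -0.039 and Hbb-bt -0.69 (past the threshold there, limma adjusted p = 0.0131). Leaving out each library gave -0.31 to 0.47 for Hbb-bt, the lowest without OMV-SIRP library 2. Krt8 was -0.52 at a pseudocount of 0.1, -1.39 with voom, -0.32 without OMV-SIRP library 1, and from -1.36 (without OMV-SIRP-G library 1) to 1.22 when each library was left out. The cause was not tested. With 3 libraries a group and about the same depth in each, genes under 1 FPKM were not resolved.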

Other observations

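Immunoglobulin genes, looked at after their values were seen, were lower under OMV-SIRP-G. Of 60 measured, 39 fell and 0 rose, and 27 of those that fell were at 0 in every OMV-SIRP-G library. A gene at 0 in all of these passes the filter on low FPKM only through OMV-SIRP or PBS libraries, and so could not rise. The 5.62% of all genes tested that fell is therefore no measure for this count. Ighg2c, a constant region of immunoglobulin G, was 119, 121 and 136 FPKM in OMV-SIRP and 3.87, 9.21 and 12.8 in OMV-SIRP-G, against 0, 0.755 and 0 in PBS (log2 change -3.84 ± 0.35, limma adjusted p = 0.000234). Igkc, the constant region of the kappa light chain, was 265, 213 and 328 against 75.1, 35.1 and 29.0. OMV-SIRP was the high group for both genes. Immunoglobulin genes are similar in sequence, so reads could be split between them.

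Further genes of myeloid cells, also chosen after their values were seen, were higher under OMV-SIRP-G. Maf, a transcription factor of macrophages, was 9.31, 10.5 and 10.9 FPKM in OMV-SIRP and 33.9, 33.9 and 35.5 in OMV-SIRP-G (log2 change 1.66 ± 0.14). Ccr1, a chemokine receptor, had a log2 change of 1.75, Cxcr4, another, of 1.63, and Siglec1, a sialic acid receptor of macrophages, of 1.47. Tlr7, a sensor of single-stranded RNA, had 1.37, and Cebpb, a transcription factor of myeloid cells, 1.32. Ms4a6d and Ms4a7, membrane proteins of macrophages, had 1.40 and 1.30. All 8 passed the threshold, which follows from choosing them by their values, and kept their call whichever library was left out. Of all 1502 genes called, 740 were called in every such fit that tested them. Myeloid genes that did not pass were not counted here.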
